A study of Drosophila melanogaster with 24 samples.

Results

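The Jonah and trypsin families of Drosophila melanogaster are serine proteases of the gut that digest dietary protein. The genes followed here were chosen by name: every probe set on the array with a single gene symbol that begins with Jon and a number, ends in Try, begins with Ser and a number, or is yip7. The rule found 27 probe sets, each for a different gene, among 18769 probe sets tested. They are 13 Jonah genes, 9 trypsins, 4 Ser genes and yip7. The annotation holds 32 genes with such names, and no named probe set was found for Jon99Cii, Jon99Ciii, Jon99Fii, gammaTry and deltaTry.

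RNA of whole animals was measured on 24 Affymetrix Drosophila Genome 2.0 arrays, 6 in each of 4 groups. The groups were adults from hyperoxia-selected populations, adults from control populations, 3rd instar larvae from hyperoxia-selected populations and 3rd instar larvae from control populations. Each group held 3 populations with 2 arrays each, and adult RNA came from 25 males pooled with 25 females. The selected and control populations were all founded from 1 pool of intercrossed wild-type isogenic lines, and the selected ones were bred over generations in rising O2 while the controls were bred in room air. Adults of selected populations were taken from the high O2 chamber and control adults from room air, so selection and the O2 level at collection cannot be told apart in adults. The O2 level around the larvae, their age within the 3rd instar and the age of the adults are not stated. The labels do not say whether the 2 arrays of a population came from separate collections of animals, so part of the spread may be technical.

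Digestive serine proteases are made as inactive precursors by cells of the midgut, secreted into the lumen and activated there by cleavage. Trypsins cut proteins after arginine or lysine. The Jonah proteins are related to chymotrypsins, most of which cut after large hydrophobic residues, and the Jonah genes are known for strong expression in the gut. A feeding larva and an adult fly differ in diet and in the makeup of the gut, and Drosophila carries many of these genes in tandem groups.

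The members lie in such groups here too. On chromosome arm 2R, lambdaTry, kappaTry, zetaTry, etaTry, thetaTry, alphaTry, epsilonTry and betaTry were direct neighbours in the annotation, and iotaTry followed after 5 other protein-coding genes. Jon25Biii, Jon25Bii and Jon25Bi were neighbours on 2L, and so were Jon66Ci and Jon66Cii on 3L. Jon65Aiv, Jon65Aiii, Jon65Aii and Jon65Ai were neighbours on 3L, with yip7 1 gene away. The arms held 2 members on X, 4 on 2L, 11 on 2R, 8 on 3L and 2 on 3R. Members of a tandem group can be similar in sequence, and whether a probe set also reads a neighbour was not tested.

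The deposited values are signals on a linear scale, and every array had the same trimmed mean of 2500.1. Array medians ran from 409.6 to 697.4 in adults and from 483.5 to 685.5 in larvae. The labelled stages were checked against marker genes. The 11 male accessory gland genes were higher in control adults than in control larvae, with a median log2 difference of 7.51, and the 6 salivary gland genes were lower, with a median of −10.49. The brightest probe set of a larval array had a signal between 142788 and 198787. Several members had larval signals near that level, and whether the arrays still responded in proportion there was not tested. In whole animals, a lower signal from fewer gut cells cannot be told apart from less RNA per cell.

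Adults had less signal than larvae for most of these proteases, and the 2 Jon66C genes differed most. In control populations 20 of the 27 members were lower in adults than in larvae, 4 were higher and 3 did not pass the test (limma, adjusted p under 0.05). Over all probe sets, 20.6% were lower in adults and 27.2% were higher. The median member had a log2 fold change of −1.45, against 0.09 over all probe sets. In 11 members the control adults were over 4-fold lower than the control larvae, and in 9 members the stages differed by under 2-fold.

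Jon66Cii had signals of 613 at the lowest, 962 at the median and 1861 at the highest in control adults, against 143701, 157869 and 187380 in control larvae. Its neighbour Jon66Ci had 637, 1399 and 2834 in control adults, against 126499, 134616 and 161601 in control larvae. In both genes every larval array lay far above every adult array. Jon66Cii was 168-fold lower in adults (log2 fold change −7.40, SE 0.26, adjusted p = 7.76e-10) and Jon66Ci was 105-fold lower (−6.71, SE 0.30, adjusted p = 4.8e-09).

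Jon44E, which stands apart from the other Jonah genes on 2R, came next. Its signals were 7713, 9681 and 11236 in control adults, against 118436, 123616 and 148954 in control larvae, with no overlap. It was 13.3-fold lower in adults (−3.74, SE 0.13, adjusted p = 6.17e-10).

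The trypsin group on 2R did not move as a block between stages. EtaTry had signals of 1037, 1235 and 1569 in control adults, against 12306, 16423 and 17365 in control larvae, and was 12.6-fold lower in adults (−3.65, SE 0.14, adjusted p = 1.81e-09). IotaTry had 1054, 1194 and 1422 in control adults, against 11366, 15351 and 16223 in control larvae, and was 12.1-fold lower (−3.60, SE 0.13, adjusted p = 1.04e-09). The adult and larval arrays did not overlap for either gene. ZetaTry (−3.48), kappaTry (−2.64), thetaTry (−2.46) and lambdaTry (−1.45) were lower as well. Within the same run of neighbours, epsilonTry (−1.44) and betaTry (−0.48) were lower to a smaller extent, while alphaTry, which lies between thetaTry and epsilonTry, did not pass the test. AlphaTry had signals of 105766, 115633 and 132661 in control adults, against 98894, 120557 and 135211 in control larvae, and these ranges overlapped almost wholly (−0.03, SE 0.11, adjusted p = 0.849). The brightest probe set of a control adult array had a signal between 121819 and 174345. AlphaTry and betaTry were thus bright in both stages, where a response in proportion was not tested.

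The Jon65A and Jon25B groups were uneven too, whereas both Jon66C genes moved alike. In the Jon65A run, Jon65Aii (log2 fold change −2.56) and Jon65Ai (−2.31) were lower in control adults, whereas Jon65Aiii (−0.63), Jon65Aiv (−0.46) and nearby yip7 (−0.31), named for the Yippee protein that it binds, differed less. In the Jon25B run, Jon25Biii (−0.42) was lower and Jon25Bii did not pass the test (−0.24, SE 0.12, adjusted p = 0.124). Jon25Bi, the next gene, was the single Jonah member that was higher in control adults. It had signals of 79789, 93003 and 113401 in control adults, against 47039, 55534 and 74419 in control larvae, and the ranges did not overlap (log2 fold change 0.68, SE 0.14, adjusted p = 0.00161). With the means of the 2 arrays and the population as a replicate block, its adjusted p was 0.0528. Jon74E (−1.77) and Jon99Fi (−1.45) were lower in adults, and Jon99Ci did not pass the test (−0.14, adjusted p = 0.285). Jon65Aiii, Jon65Aiv, yip7, Jon25Biii and Jon25Bii were bright in both stages, where a response in proportion was not tested.

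Of the 4 Ser genes, 3 went the other way. Ser7 had signals of 1820, 2170 and 2504 in control adults, against 110, 274 and 376 in control larvae (log2 fold change 3.14, SE 0.28, adjusted p = 1.38e-06). Ser8 had 2211, 2694 and 3808 in control adults, against 270, 314 and 436 in control larvae (3.11, SE 0.18, adjusted p = 3.74e-08). Ser12 had 862, 1482 and 2158 in control adults, against 80.1, 281 and 530 in control larvae (2.53, SE 0.41, adjusted p = 0.000223). All control adult arrays lay above all control larval arrays for these genes, and 1 control larval array read Ser12 below the 20th percentile of its signals. Ser6 was lower in control adults (−2.38, SE 0.25, adjusted p = 5.33e-06). Ser7 was also written on the list of clip-domain proteases, enzymes known from blood and the embryo, and is counted here because its name meets the rule. The other Ser genes were also chosen by name, and whether they act in digestion was not tested.

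The stage difference in the selected populations had much the same members on each side. There 22 members were lower in adults than in larvae, 3 were higher and 2 did not pass the test, while 17.5% of all probe sets were lower and 31.8% were higher. Of the members, 20 were lower and 3 were higher in both the selected and the control populations. Jon25Bii (−0.96, SE 0.20, adjusted p = 0.00144) and Jon99Ci (−1.19, SE 0.33, adjusted p = 0.00887) passed the test in selected populations and not in control ones, and Jon25Bi passed in control populations and not in selected ones (−0.27, SE 0.17, adjusted p = 0.214). The median member had a log2 fold change of −2.08, against 0.30 over all probe sets, and 14 members were over 4-fold lower in selected adults. The test of such a difference between selected and control populations is the interaction, given further on, which Jon25Bi passed and Jon25Bii and Jon99Ci did not. Ser7 was higher in selected adults (4.29, SE 0.47, adjusted p = 8.26e-06), and 2 of the 6 selected larval arrays read it below the 20th percentile of their signals.

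**Figure D1:**
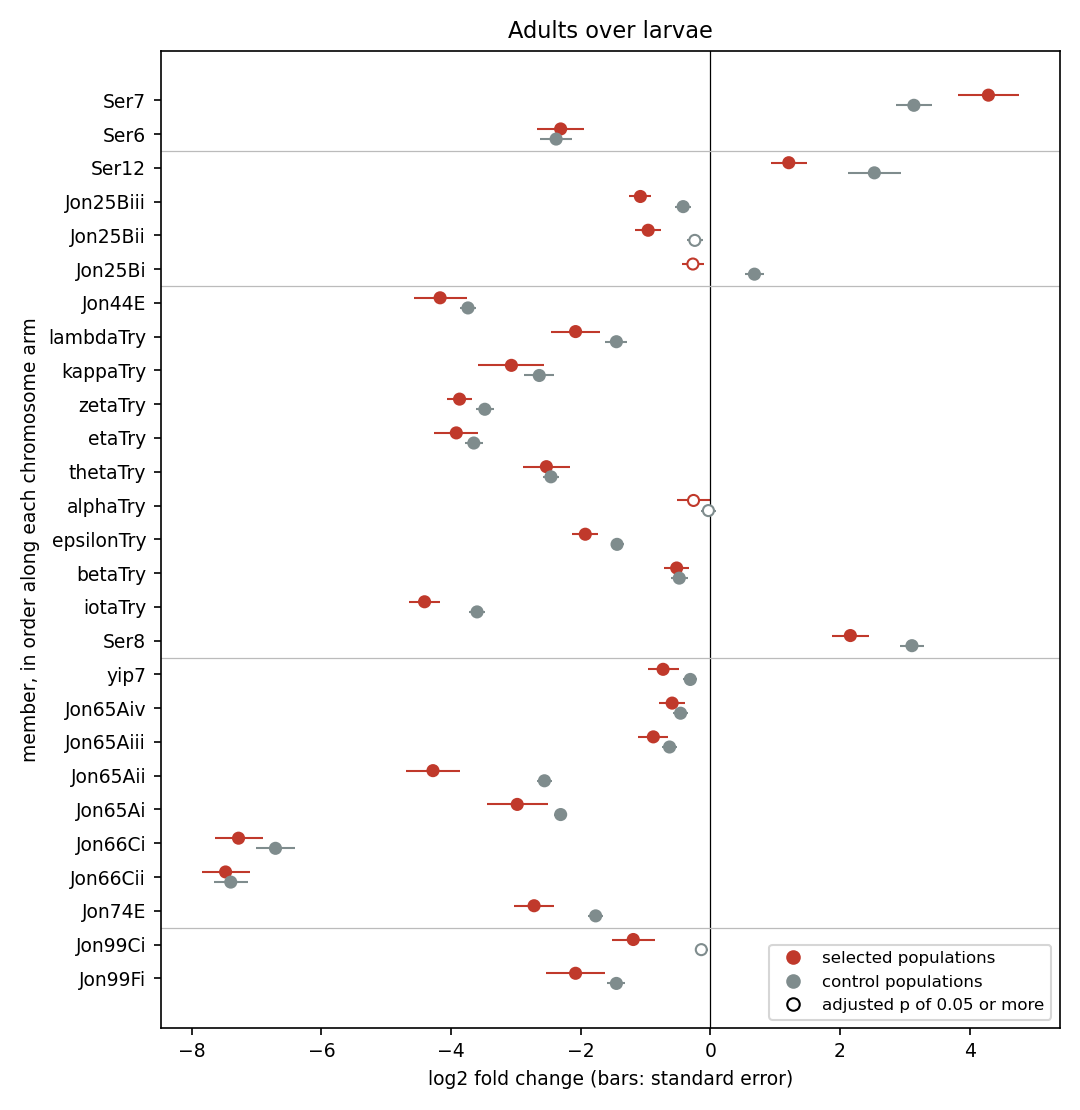
Log2 fold change of adults over larvae (horizontal axis, bars are standard errors) for the 27 members in order along each chromosome arm, in selected populations (red) and control populations (grey), with open points where the adjusted p was 0.05 or more. Jon66Ci and Jon66Cii sit between −6.71 and −7.48, the trypsins other than alphaTry and betaTry between −1.44 and −4.41, and Ser7, Ser8 and Ser12 above 0.

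Hyperoxia-selected adults had lower signals than control adults for several of these proteases, and 1 of the 27, Ser12, passed the test over all probe sets. Over all probe sets 0.357% were called in either direction, and a count of 1 is too small to set against it. The fold changes themselves leaned to one side: 23 of 27 members were below 0, against 42.1% of all probe sets. Their median was −0.48, against 0.06 over all probe sets. By family the median was −0.65 for the Jonah genes, −0.21 for the trypsins and −0.47 for the Ser genes. At an unadjusted p under 0.05, 9 members were lower and 0 higher, where 5.74% of all probe sets were lower. Without selected population 3 there were 14 lower and 0 higher, with 1151 lower and 1151 higher over all probe sets. Without selected population 1 there were 7 lower and 2 higher, with 918 lower and 957 higher over all probe sets. Many of the 27 signals were low together on the same arrays, as given further on, so these counts are not 27 separate observations.

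Ser12 had signals of 330 at the lowest, 518 at the median and 700 at the highest in selected adults, against 862, 1482 and 2158 in control adults. Every selected array lay below every control array. The log2 fold change was −1.48 (SE 0.27, adjusted p = 0.0424 from limma), and the adjusted p lay between 0.0799 and 0.172 without any 1 of the 6 populations. The call was also lost under median centring (−1.57, adjusted p = 0.0799) and with all 24 arrays in one fit (adjusted p = 0.0549).

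Of the next 5 by p-value, 4 are Jonah genes. Jon65Aii had 1938, 7628 and 11286 in selected adults, against 18786, 21537 and 23772 in control adults. The groups did not overlap, and the fold change of −1.91 was the largest of any member (SE 0.42, adjusted p = 0.0951). With 1 population left out in turn, the fold change lay between −2.36 and −1.26 and the adjusted p between 0.0264 and 0.335. The lowest of these p-values came without selected population 1, which gave −1.26.

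Jon25Bii had 35065, 56064 and 58145 in selected adults, against 74913, 80095 and 94545 in control adults, again with no overlap (−0.74, SE 0.16, adjusted p = 0.0906). Jon25Bi, its neighbour, had 46628, 70478 and 75836 in selected adults, against 79789, 93003 and 113401 in control adults, also with no overlap (−0.54, SE 0.16, adjusted p = 0.227). Ser12, Jon65Aii, Jon25Bii and Jon25Bi were the 4 members whose selected arrays all lay below the control arrays, a pattern seen in 1.55% of all probe sets.

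Jon74E had 8488, 21297 and 30586 in selected adults, against 30107, 40236 and 43190 in control adults, and 1 selected array exceeded the lowest control array (−1.06, SE 0.30, adjusted p = 0.191). Ser8 had 928, 1505 and 2672 in selected adults, against 2211, 2694 and 3808 in control adults, where again 1 selected array reached into the control range (−0.94, SE 0.27, adjusted p = 0.21). Ser12, Jon65Aii, Jon25Bii, Jon74E and Ser8 are also on the gene list that the study chose on these adult arrays, so their direction there is not independent evidence. At the other end, Ser7 (0.00, SE 0.14) and betaTry (0.00, SE 0.19) had fold changes at 0, and Ser6 (0.48), kappaTry (0.26) and etaTry (0.25) had positive fold changes with adjusted p of 0.716, 0.891 and 0.833.

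**Figure D2:**
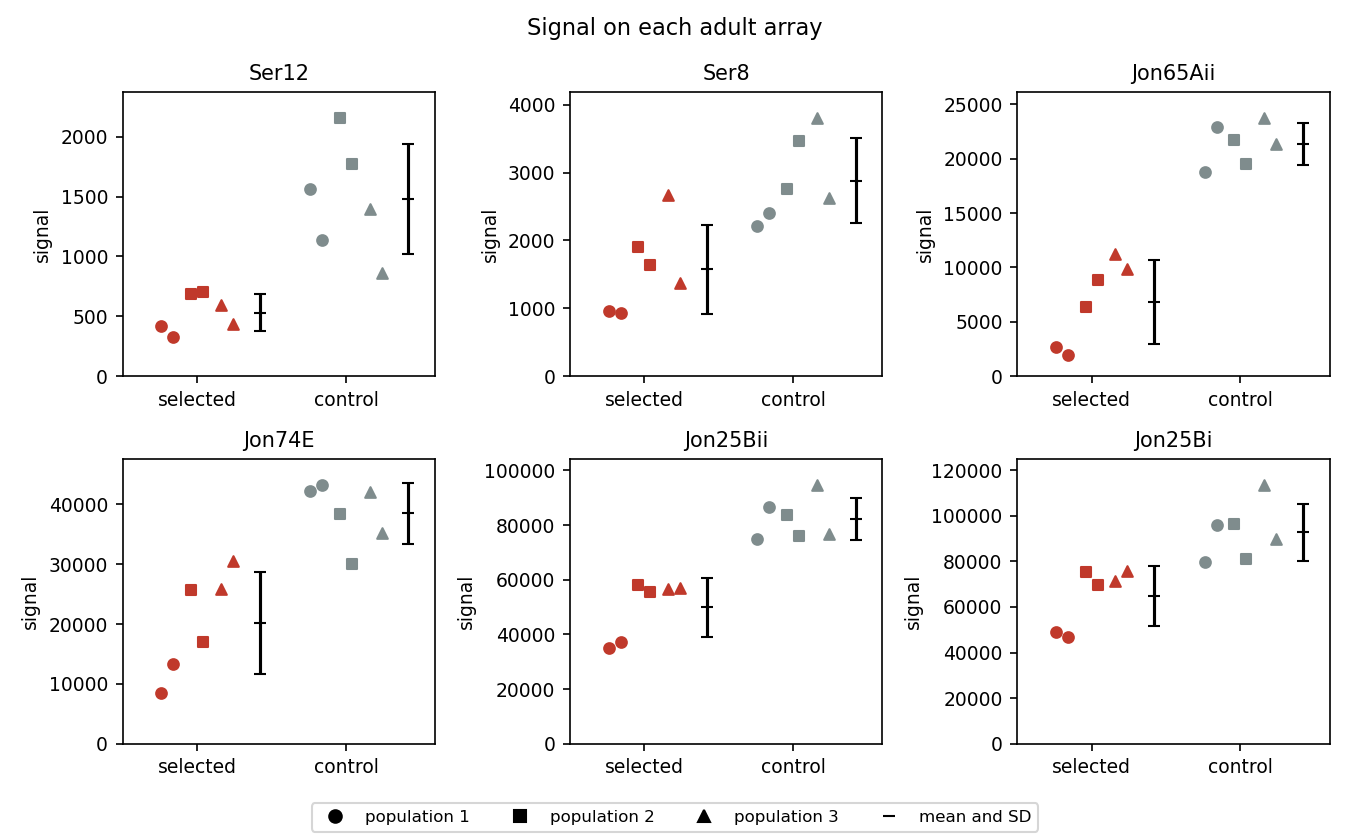
Signal (vertical axis, linear, from 0) on each adult array for the 6 members with the smallest p, with selected arrays in red and control arrays in grey, symbols for the 3 populations, and the mean with its SD over 6 arrays. Selected arrays lie below all control arrays for Ser12, Jon65Aii, Jon25Bii and Jon25Bi, and the 2 arrays of selected population 1 are the lowest of each panel.

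One selected population carried much of the shift in adults. Selected population 1 had the lowest population mean of the selected adults for 27 of 27 members, and for 23 of them both of its arrays lay below the other 4 selected arrays. The exceptions were lambdaTry, kappaTry, etaTry and iotaTry, all trypsins of the 2R group. Jon65Ai, for example, had signals of 6034 and 5595 in population 1, 35280 and 12679 in population 2 and 27223 and 29386 in population 3, against 24611 to 29290 in control adults. Jon99Fi had 10301 and 12156 in population 1, 57416 and 28323 in population 2 and 61947 and 48757 in population 3, against 35362 to 56927 in control adults. Population 3 thus lay within the control range or above it for these 2 genes, while population 2 had 1 array above the control range and 1 array below it for both. Across the 27 members, the median log2 shift from the control adult mean was −0.93 and −1.07 on the arrays of selected population 1, 0.18 and −0.56 for population 2, and 0.03 and 0.01 for population 3. Control adult arrays lay between −0.14 and 0.15. Both arrays of a control adult population lay below the other 4 control adult arrays for 4 members in population 1, 2 in population 2 and 2 in population 3. The share of all probe sets with such a pattern was not counted.

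The 2 arrays of selected population 2 also differed: 23 of 27 members were lower on its second array than on its first, with a median difference of −0.77. The spread within the selected adults was wide, with a median coefficient of variation of 41.6%, against 13.0% in control adults. Without selected population 1 the median member stood at −0.14, 16 of 27 members were below 0, and 7 members were lower at an unadjusted p under 0.05 while 2 were higher. Ser12, Jon65Aii, Jon74E, Ser8 and the 3 Jon25B genes were the 7 that were lower in that comparison, and Ser6 and etaTry were the 2 that were higher.

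Genes of other enzyme lists moved on the same arrays. On the 2 arrays of selected population 1 the median shift was −0.37 and −0.86 for 40 other trypsin-like and chymotrypsin-like genes, −0.40 and −0.62 for 36 carboxypeptidases and other peptidases, and −0.38 and −1.30 for 20 amylases, lysozymes and glycosidases. The 6 midgut markers shifted by −0.21 and −0.91 there and by −0.14 to 0.75 on the other selected arrays, and their summed signal was 24498 to 33578 in selected adults, against 26466 to 28055 in control adults. Most of that sum was cad, which has uses outside the gut, and the other 5 markers summed to 3945 to 16828 in selected adults, against 7398 to 10137 in control adults. No midgut marker was at 0: mex1, an enterocyte gene, had signals of 1863 to 9304 in selected adults, against 3483 to 4950 in control adults. The median over all probe sets shifted by 0.09 and 0.08 on the arrays of population 1. Markers of another tissue moved as well. The 11 male accessory gland genes shifted by 0.75 and 0.61 on the arrays of selected population 1, by 0.32 and 1.00 for population 2, and by 0.32 and 0.16 for population 3, so among the selected arrays they were highest on the 3 where the proteases were lowest. Control adult arrays lay on both sides of 0 and reached 1.03 for these genes, 0 of the 11 were called between selected and control adults (median 0.50, with 1 higher at an unadjusted p under 0.05), and their summed signal was 289627 to 437953 in selected adults, against 136423 to 483456 in control adults. The 7 fat body markers shifted by 0.06 to 0.37 on the selected adult arrays, against −0.26 to 0.32 on the control ones. The parts of the amount of gut and of accessory gland tissue in the protease shift were not tested.

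**Figure D3:**
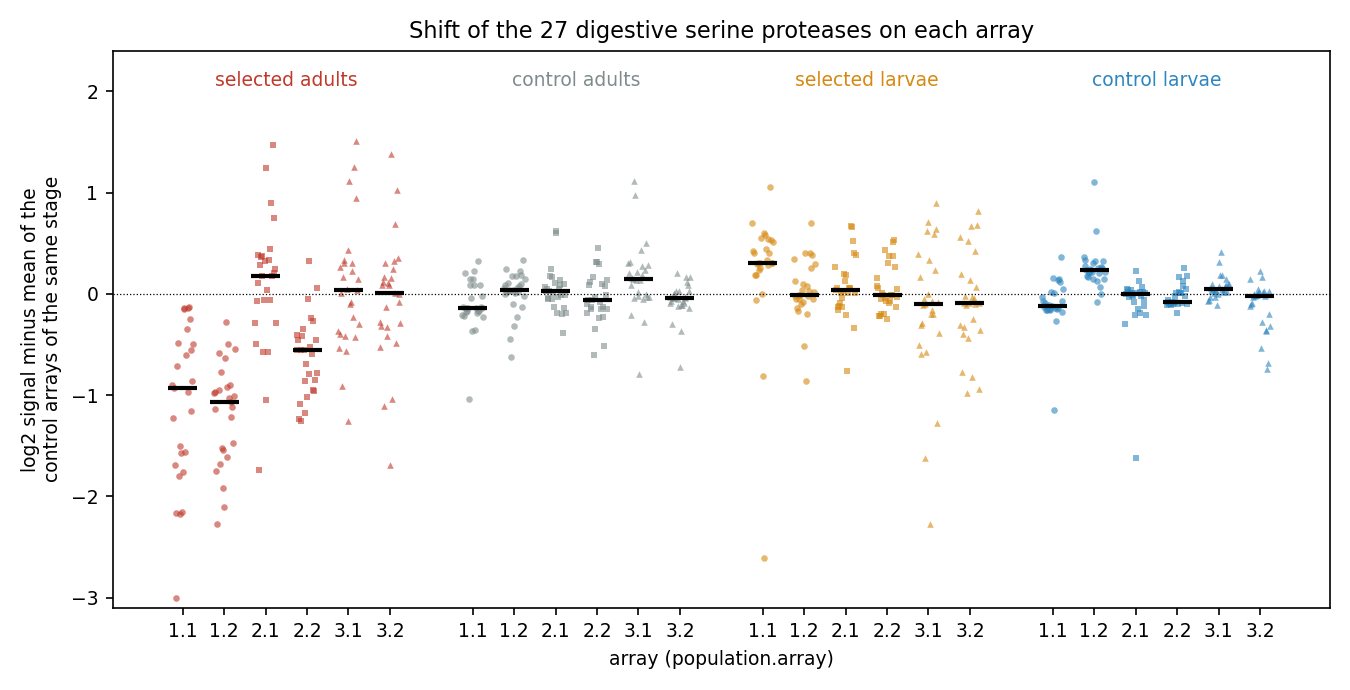
Log2 signal of each of the 27 members (points) on each of the 24 arrays, as the difference from the mean of the control arrays of the same stage (vertical axis), with the median of the members on each array as a black bar. Both arrays of selected adult population 1 and the second array of selected adult population 2 lie below the rest, and the other array medians lie between −0.14 and 0.31.

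In selected larvae, 4 trypsins of the 2R group leaned above the control larvae, and 1 of them, etaTry, passed the test. Over all probe sets 1.65% were called, and of the members 1 was called and 26 were not. The median member was at 0.01, against −0.11 over all probe sets, and 12 of 27 were below 0, against 61.3% of all probe sets. At an unadjusted p under 0.05, 7 members were higher and 0 were lower, while 5.78% of all probe sets were higher: etaTry, kappaTry, lambdaTry, iotaTry, Jon99Ci, Jon25Bi and Ser6. These counts changed with the population left out, which gave 4 to 7 higher and 0 to 3 lower. EtaTry, kappaTry and Jon99Ci were among the higher ones in each case. Without selected population 1 there were 4 higher and 3 lower (Jon44E, thetaTry and Jon66Cii), with 882 higher and 1623 lower over all probe sets. Without selected population 3 there were 4 higher and 0 lower.

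EtaTry had signals of 20892, 22734 and 25197 in selected larvae, against 12306, 16423 and 17365 in control larvae, with no overlap (log2 fold change 0.52, SE 0.12, adjusted p = 0.0493). The call was lost when any 1 population was left out (adjusted p 0.0782 to 0.181) and under quantile normalization (0.45, adjusted p = 0.0673) or median centring (0.70, adjusted p = 0.0673), and with all 24 arrays in one fit (adjusted p = 0.334). KappaTry, with zetaTry between it and etaTry, had 17747, 19530 and 25757 in selected larvae, against 7387, 13267 and 14812 in control larvae, also with no overlap (0.69, SE 0.19, adjusted p = 0.0975). These were the 2 members whose selected larval arrays all lay above the control ones, as did 1.85% of all probe sets.

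Jon99Ci had 56651, 73434 and 81012 in selected larvae, against 48869, 52795 and 58535 in control larvae, with a narrow overlap (0.40, SE 0.12, adjusted p = 0.122). LambdaTry had 16075, 18491 and 24975 in selected larvae, against 8354, 13992 and 17167 in control larvae (0.55, SE 0.20, adjusted p = 0.187). Both ranges overlapped at their edges. Jon25Bi had 64246, 74562 and 93888 in selected larvae, against 47039, 55534 and 74419 in control larvae (0.40, SE 0.15, adjusted p = 0.191), and 3 of the 6 selected arrays lay within the control range. Ser6 had 14026, 15932 and 19554 in selected larvae, against 8526, 12670 and 15404 in control larvae (0.42, SE 0.17, adjusted p = 0.236), with 2 of the 6 selected arrays within the control range.

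The selected larvae differed among their populations. In selected population 3 both arrays lay below the other 4 selected arrays for 16 of 27 members and above them for 2. The median difference of the members was −0.16. In selected population 1 both arrays lay above the other 4 for 10 members and below them for 1. The share of all probe sets with such patterns was not counted. The median of all probe sets lay −0.12 and −0.14 from the control larval mean on the arrays of population 3. Jon66Cii had 51837 and 81097 in population 3, against 138853 to 190241 in the other selected larvae and 143701 to 187380 in control larvae. ThetaTry had 31887 and 40411 in population 3, against 61176 to 95701 in the other selected larvae and 67300 to 97082 in control larvae. The mean log2 difference of population 3 from the other selected populations was −1.25 for Jon66Cii, −1.05 for thetaTry, −0.68 for zetaTry, −0.62 for Jon44E and −0.59 for Jon74E. Jon66Ci, the neighbour of Jon66Cii, differed by −0.14, and etaTry and kappaTry differed by −0.03 and −0.04. The lower values of population 3 were thus uneven within the tandem groups.

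**Figure D4:**
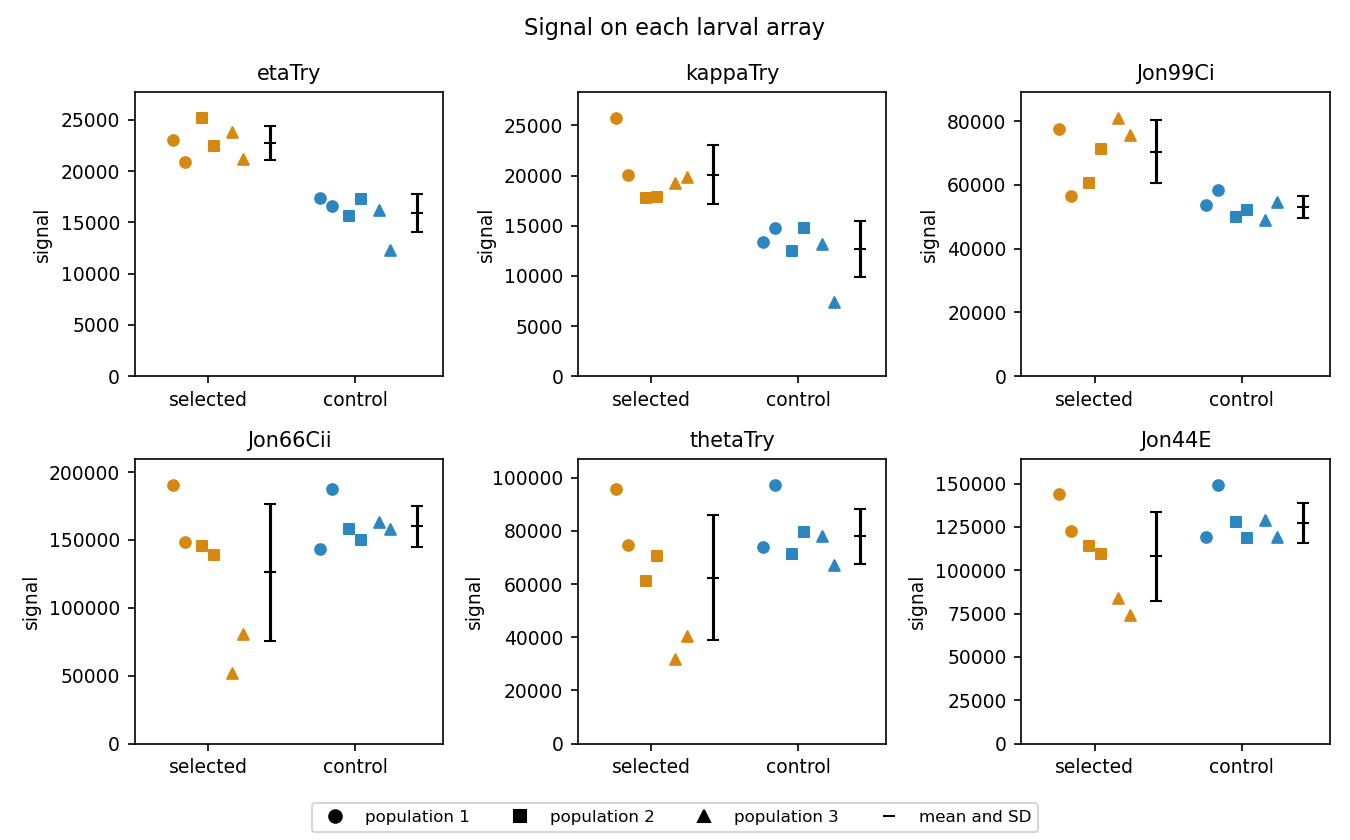
Signal (vertical axis, linear, from 0) on each larval array for 6 members, with selected arrays in orange and control arrays in blue, symbols for the 3 populations, and the mean with its SD over 6 arrays. Selected arrays lie above all control arrays for etaTry and kappaTry, and the 2 arrays of selected population 3 lie far below the rest for Jon66Cii and thetaTry.

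Some genes of other enzyme lists were higher in selected larvae too. Of 36 carboxypeptidases and other peptidases 4 were higher and 0 lower, including CG7631 (1.68, SE 0.24, adjusted p = 0.00668) and CG42335 (1.90, SE 0.29, adjusted p = 0.0103). Of 20 amylases, lysozymes and glycosidases 2 were higher: the maltase Mal-A1 (2.00, SE 0.35, adjusted p = 0.0188) and the glucosidase gene tobi (1.65, SE 0.27, adjusted p = 0.0154). Of 40 other trypsin-like and chymotrypsin-like genes 2 were higher, CG31265 (0.78) and CG17475 (0.70), and CG6592 (−1.65) was lower. The 6 midgut markers had a summed signal of 146700 to 173840 in selected larvae, against 90563 to 114582 in control larvae, and nub (0.83, adjusted p = 0.0103) and Npc2f (0.77, adjusted p = 0.00806) passed the test. The midgut markers thus moved the same way as etaTry, while the median member was at 0.01 and 12 of 27 members were below 0. Many members were bright in larvae, such as Jon66Cii with a mean of 159980 in control larvae, against 15897 for etaTry. Whether the arrays could show a rise in proportion at the bright end was not tested. Salivary gland markers lay on the opposite side. The 6 salivary gland genes had a median log2 fold change of −0.41, with 3 of 6 lower at an unadjusted p under 0.05 and 0 called, and their summed signal was 385121 to 682110 in selected larvae, against 610122 to 786458 in control larvae. The 7 fat body markers had a median of −0.35, with 0 of 7 past an unadjusted p of 0.05. Their median shift was −0.94 to −0.04 over the selected larval arrays, against −0.21 to 0.34 over the control ones, and their summed signal was 354972 to 443289 in selected larvae, against 365570 to 491093 in control larvae. The yolk genes Yp1, Yp2 and Yp3 among them were dim in larvae. Fbp1 had 18179 to 100355 in selected larvae, against 36914 to 107567 in control larvae. The ranges were close for Lsp2 (134079 to 165596, against 133060 to 165628) and apolpp (95459 to 118613, against 88490 to 115049). The part of each tissue in the larval protease values was not tested, and the age of the larvae within the 3rd instar is not stated. In adults 0 genes of these 3 enzyme lists passed the same limma test, and at an unadjusted p under 0.05, 5 were lower and 3 higher among the other trypsin-like and chymotrypsin-like genes, 5 and 3 among the carboxypeptidases and other peptidases, and 4 and 1 among the amylases, lysozymes and glycosidases.

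The effect of selection differed between adults and larvae for 1 member. The interaction, which is the adult log2 fold change minus the larval one over all 24 arrays, was −0.94 for Jon25Bi (SE 0.21, adjusted p = 0.0452), with a selection effect of −0.54 in adults and 0.40 in larvae. Over all probe sets 0.575% were called in the interaction. The call was lost when any 1 population was left out (adjusted p 0.0569 to 0.229) and under median centring (adjusted p = 0.0531). In 25 of 27 members the interaction was below 0, against 37.3% of all probe sets. The median of the members was −0.49, against 0.16 over all probe sets. Without selected population 1 the median was 0.05 and 13 members were below 0.

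The next 5 members did not pass the test. Jon65Aii had an interaction of −1.72 (SE 0.44, adjusted p = 0.0753), from −1.91 in adults and −0.19 in larvae. Jon25Biii (−0.67, SE 0.20, adjusted p = 0.133) and Jon25Bii (−0.72, SE 0.23, adjusted p = 0.141) had the sign of their neighbour Jon25Bi, which 25 of 27 members shared. In larvae the selection effect was 0.40 for Jon25Bi, 0.14 for Jon25Biii and −0.02 for Jon25Bii. Jon99Ci (−1.05, SE 0.34, adjusted p = 0.163) and iotaTry (−0.81, SE 0.27, adjusted p = 0.167) had negative effects in adults and positive ones in larvae. BetaTry was at 0.00 in adults and 0.04 in larvae, with an interaction of −0.04 (SE 0.22).

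**Figure D5:**
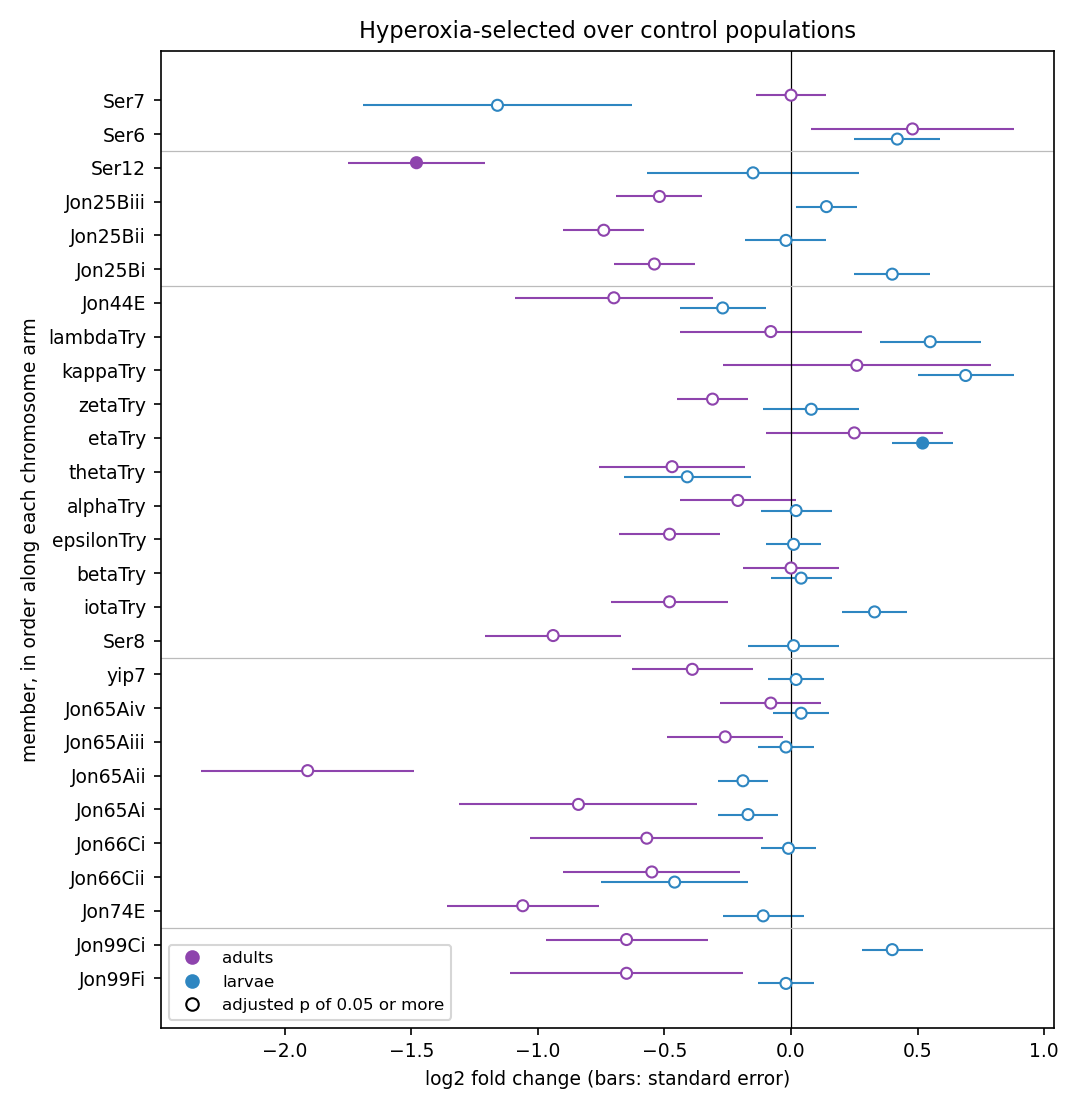
Log2 fold change of selected over control populations (horizontal axis, bars are standard errors) for the 27 members in order along each chromosome arm, in adults (purple) and larvae (blue), with filled points where the adjusted p was under 0.05. Filled points are Ser12 in adults and etaTry in larvae, and in 25 members the adult point lies left of the larval one.

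Between the stages, the other enzyme lists gave the following counts. Of 40 other trypsin-like and chymotrypsin-like genes, 21 were lower and 11 higher in control adults than in control larvae, with a median of −1.18. CG11912 (−4.14) and Try29F (−3.86) were among the lower ones. CG31681 (6.63), CG11037 (6.61) and CG7542 (5.71) were among the higher ones. Whether each gene of this list acts in the gut was not tested. Of 36 carboxypeptidases and other peptidases 22 were lower and 9 higher (median −1.74), and of 20 amylases, lysozymes and glycosidases 9 were lower and 6 higher (median −0.53). The 6 midgut markers gave 5 lower and 1 higher (cad), with a median of −2.60. The list written as clip-domain proteases of blood and embryo, with 14 genes, gave 7 lower and 5 higher (median −0.10). Whether each of its genes has a clip domain or acts outside digestion was not tested. The part of a smaller share of gut in the adult body in the stage difference was not tested. In selected populations the counts were 22 lower and 12 higher, 22 lower and 7 higher, 10 lower and 6 higher, and 6 lower and 7 higher for the same 4 enzyme lists in that order.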

How the data were processed

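The values deposited by the authors are linear intensity signals, with 1 for every probe set of an array. The methods mention dChip (MBEI) as well as RMA after background subtraction, and the sources used here do not say which of them made the table. Control probe sets (183) were left out, signals were floored at 1, and log2 values were fitted with lmFit and eBayes of limma 3.58.1 (R 4.3.3), with arrays that share population and stage as a random block. The estimated block correlation was 0.133 for adults, 0.153 for larvae, 0.122 and 0.143 for the stage comparisons in control and selected populations, and 0.148 for the interaction. Each is 1 value for all probe sets of a comparison, and no correlation was estimated for the members alone. In selected adults, both arrays of population 1 lay below the other 4 for 23 of 27 members. Standard errors and p-values of members may thus be too small. P-values were adjusted by Benjamini-Hochberg over 18769 probe sets, and the number of populations limits precision.

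Gene names came from the platform annotation (13647 probe sets with 1 symbol, 402 with several, 4720 not listed), and gene order from RefSeq. The members, the gene lists and the rule for named genes (called members, and the smallest p up to 6 per comparison) were chosen with earlier results of these data known, and genes named from the other lists were picked after their values were seen. No gene or probe sequence was used here. The model was tested on simulated data. Same-population deviations of the 2 stages correlated between −0.0688 and 0.102, so pairing was tried as an alternative alone. Python 3.11.15 with pandas 2.3.3 and numpy 2.4.6 wrote the tables, and matplotlib 3.10.9 drew the plots.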

Additional observations from a re-analysis of the deposited data

Results flagged for a closer look

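The difference of the selection effect between adults and larvae passed the test for Jon25Bi, at −0.94 on the log2 scale.

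In 14 of 108 groups of 6 arrays, 1 array stood far from its nearest neighbour relative to the range of the group, where chance flags about 1 in 20 groups, or 5.4 here. The groups share arrays, so the 14 are not separate events. On selected larval population 1 array 1, the highest value stood apart by 0.708 of the range for kappaTry, 0.732 for betaTry, 0.782 for Ser8, 0.741 for yip7, 0.849 for Jon65Aiv, 0.868 for Jon65Aiii and 0.75 for Jon66Ci. On control larval population 1 array 2, the gap of the highest value was 0.757 for Jon25Bii, 0.648 for Jon44E and 0.694 for Jon66Ci. On control larval population 3 array 2, the lowest value stood apart by 0.691 for kappaTry, 0.653 for etaTry and 0.673 for iotaTry, all trypsins of the 2R group. On control adult population 1 array 2, the highest value of thetaTry had a gap of 0.75.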

How the results depend on the processing

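In adults 1 member was called; 0 were called under median centring, with the means of the 2 arrays and with the population number as a replicate block, 2 with a floor at the 20th percentile, 2 by the methods' t-test after Benjamini-Hochberg and 3 with all 24 arrays in one fit (where Ser12 was not among them), and 0 to 1 with a population left out. In larvae 1 was called; 0 were called under quantile normalization, median centring, the means, the replicate block and all 24 arrays, 2 by the methods' t-test, and 0 to 0 with a population left out. By that t-test after Benjamini-Hochberg, 226 of all probe sets were called in adults and 908 in larvae. In the interaction 1 was called; 2 were called under quantile normalization, with arrays taken as independent and with one random block per population across stages, 0 under median centring, the means and the replicate block, and 0 to 3 with a population left out. With means, 0 of all probe sets were called in these 3 comparisons, since few values remain.

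Between stages, leaving out a population gave 21 to 22 members called in control populations (24 with all) and 20 to 25 in selected ones (25 with all), and the population number as a replicate block gave 19 in each. At the methods' threshold 0 members were called in adults or larvae, 12 between stages in control populations and 4 in selected ones. Over all 18769 probe sets that threshold called 0 in adults, 0 in larvae, 794 between stages in control populations and 785 in selected ones. Of the values of single named members, 452 kept their direction and call, 32 lost the call, 13 gained it, and 1 turned: Jon25Bi in selected populations between stages, 0.29 under quantile normalization against −0.27. Ser12 between selected stages gave 0.95 (adjusted p = 0.0864) without selected population 2.

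Scaling moved the split of calls over all probe sets. It was 15 higher and 52 lower in adults against 0 and 14 under median centring; 163 and 146 in larvae against 188 and 106 under quantile normalization and 164 and 27 under median centring; and 38 and 70 in the interaction against 18 and 92 and 4 and 70. Median centring moved the median of all probe sets to 0.07 in larvae (−0.11 without) and −0.10 in the interaction (0.16 without).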
